A study of Homo sapiens with 16 samples.

Results

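The locus described here is a window of 370 kb on human chromosome 7, at chr7:130480000-130850000 of hg19, that holds the microRNA gene MIR29A near 130.56 Mb and the long non-coding RNA gene LINC-PINT between 130.63 and 130.80 Mb. Its members were all MED1 peaks, in any of 6 deposited peak lists, that overlapped the window by at least 1 bp. The window was chosen by its peak calls, which were known from earlier results of these data, so the number of peaks in it is a description and carries no test. It held 71 of the 3464 peaks of the 6 lists. They were 0 of 66 in MED14-AID cells given auxin and Nutlin-3a, 0 of 53 in MED14-AID cells given auxin, 11 of 522 in MED14-AID cells given water and Nutlin-3a, 10 of 463 in MED14-AID cells given water, 25 of 1254 in WT cells given Nutlin-3a and 25 of 1106 in WT cells given DMSO. The positions of both genes are known to 10 kb only in the rule that set the window.

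MED1 chromatin immunoprecipitation with sequencing (ChIP-seq) had been done in HCT116, a human colorectal carcinoma cell line, in 16 samples, of which 8 were MED1 libraries and 8 were inputs without antibody. The MED14-AID cells carried the genotype label OsTir1+/-;Med14-AID+/+ and were edited with CRISPR/Cas9. They received 500 µM auxin (IAA) for 3 h, alone or followed by Nutlin-3a for 1 h, or water for 3 h, alone or followed by Nutlin-3a for 1 h, with 1 MED1 library each. All 4 MED14-AID groups therefore shared the tag and OsTir1, also without auxin, and the labels do not say whether the line is 1 clone. WT cells were wild-type HCT116 given Nutlin-3a or DMSO for 1 h, with 2 MED1 libraries behind 1 joint list each. With 1 list per condition there was no spread between replicates, and every comparison below is a description of these lists without a test. Sequencing depth cannot be read from the lists, and a region without a listed peak may hold MED1 below the threshold of the caller. They also hold no marker by which the cell line could be checked.

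Mediator is a large complex of many subunits that links transcription factors at enhancers with RNA polymerase II at promoters. MED1 is a subunit that many factors contact and that is often mapped to find strongly occupied enhancers, while MED14 is the backbone that joins the main modules of the complex. In the auxin-inducible degron (AID) system, the plant receptor OsTIR1 directs an AID-tagged protein to the proteasome when auxin is added. Nutlin-3a occupies the p53 pocket of MDM2, the ligase that marks p53 for degradation, and so raises p53 and its targets. LINC-PINT is known as a p53-induced long non-coding RNA, and miR-29a as a microRNA that lowers the mRNAs of extracellular matrix and DNA methylation genes. MED1 binding is the only quantity measured here: no histone mark, p53 binding or RNA level was used, so whether these peaks are enhancers, and of which gene, was not measured.

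The microRNA sequences are shown first, since they are the products of the gene that lies between the peak clusters. They and the positions in this and the following paragraph are from RefSeq on GRCh38.p14, and were not joined to the hg19 peaks. MIR29A lay at chr7:130876747-130876810 on the minus strand, and MIR29B1 lay 648 bases further along, so both hairpins come from the same short stretch. In the mature sequences the seed, bases 2 to 8 from the 5′ end, is in capitals.
hsa-miR-29a-3p: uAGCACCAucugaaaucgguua
hsa-miR-29b-3p: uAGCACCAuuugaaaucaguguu
hsa-miR-29a-5p: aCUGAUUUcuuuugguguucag
hsa-miR-29b-1-5p: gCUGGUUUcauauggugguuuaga
The 2 main products, miR-29a-3p and miR-29b-3p, shared their seed and their first 9 bases and first differed at position 10. In the RefSeq table the seed was held by 3 mature names of 2370, these and miR-29c-3p, made from 4 hairpins. The 5p products did not share a seed with each other. In the hairpins the 3p product is in capitals.
MIR29A hairpin: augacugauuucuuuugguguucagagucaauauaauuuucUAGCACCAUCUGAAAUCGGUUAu
MIR29B1 hairpin: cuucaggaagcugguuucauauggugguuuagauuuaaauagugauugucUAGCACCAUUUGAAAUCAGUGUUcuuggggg

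LINC-PINT is transcribed from the minus strand, toward the microRNAs. RefSeq annotated it over 232.4 kb with 13 transcripts, from 22 bases beside MIR29B1 to 168 bases beside MKLN1, and KLF14 was the next gene on the other side of MIR29A at 142.5 kb. This span is longer than the LINC-PINT interval of the rule, so peaks counted below on the MIR29A side may lie within the annotated gene. The table gave 4 start windows of LINC-PINT, which lay 35.77, 229.5, 232.4 and 232.4 kb from MIR29B1. The nearest and the farthest are shown, because the peaks described below were unevenly spread between the 2 ends of the gene. Each has 250 bases before the start in lower case and 50 bases after it in capitals, 5′ to 3′ on the minus strand.
LINC-PINT start window at chr7:130913261-130913560: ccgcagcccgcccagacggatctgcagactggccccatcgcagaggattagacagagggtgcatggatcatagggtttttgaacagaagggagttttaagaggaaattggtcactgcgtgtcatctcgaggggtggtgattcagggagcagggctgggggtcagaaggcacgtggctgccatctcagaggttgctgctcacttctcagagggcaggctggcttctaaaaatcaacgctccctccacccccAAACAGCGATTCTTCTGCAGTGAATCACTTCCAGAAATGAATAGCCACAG
LINC-PINT start window at chr7:131109876-131110175: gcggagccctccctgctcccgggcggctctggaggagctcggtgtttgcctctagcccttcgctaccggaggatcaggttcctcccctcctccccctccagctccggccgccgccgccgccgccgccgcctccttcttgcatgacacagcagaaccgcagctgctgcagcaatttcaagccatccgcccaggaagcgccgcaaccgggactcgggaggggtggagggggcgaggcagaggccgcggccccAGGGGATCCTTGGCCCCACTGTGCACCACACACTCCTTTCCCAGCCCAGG
Their G and C content was 54.7% and 70.3%. The half-site consensus of p53, searched by its IUPAC letters, which read the same on both strands, was found in 0 of the 4 LINC-PINT windows and in 2329 of 35116 start windows (6.632%) of the table. The absence of these letters covers the 300 bases of each window and nothing beyond them. The windows at 232.4 kb overlap over most of their length, so the 4 windows are not all separate.

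In every list without auxin the window was occupied by MED1 at many separate places. Merging overlapping peaks of the 6 lists gave 26 regions, numbered 1 to 26 along the chromosome. Of these, 17 ended before the LINC-PINT interval and are called the MIR29A side, 9 lay within the LINC-PINT interval, and 0 lay beyond it. These names follow the interval of the rule and do not separate the genes. Regions 9 to 17 of the MIR29A side lay after the rounded MIR29A position. On that side RefSeq annotates LINC-PINT from 22 bases beside MIR29B1, on GRCh38.p14. The MIR29A side held 7 peaks in MED14-AID water + Nutlin-3a, 6 in MED14-AID water, 16 in WT Nutlin-3a and 17 in WT DMSO. The LINC-PINT interval held 4, 4, 9 and 8 peaks in the same lists. Both the MIR29A side and the LINC-PINT interval thus had peaks in all 4 lists without auxin, and in neither auxin list.

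**Figure D1:**
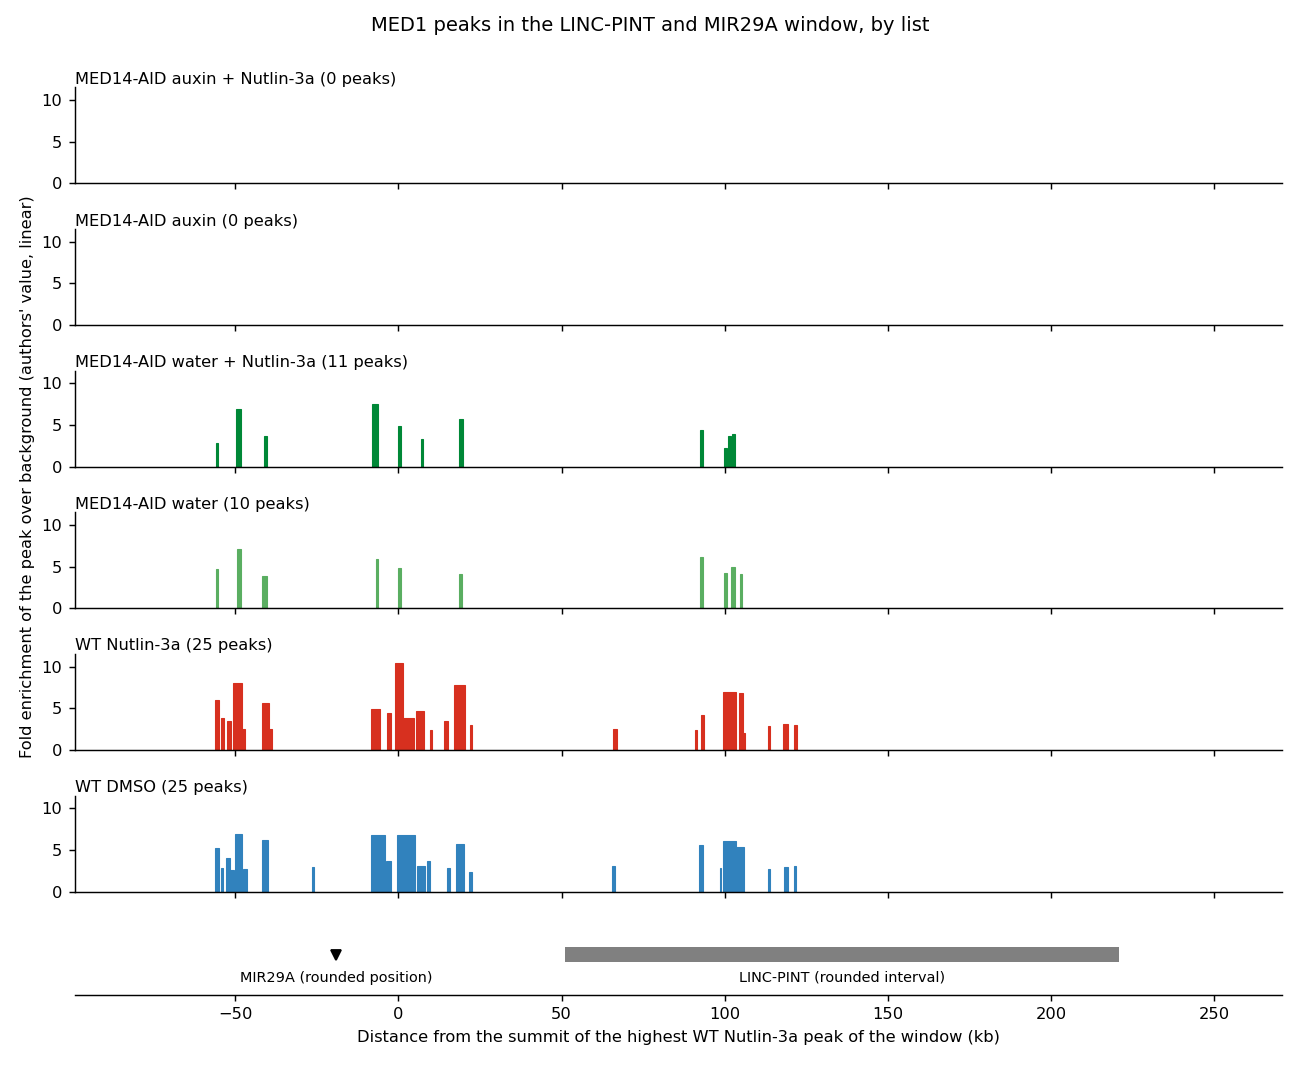
MED1 peaks of the window in the 6 lists, as bars from each peak's start to its end (x axis, kb from the summit of the highest WT Nutlin-3a peak) with the fold enrichment the authors' caller gave on a linear y axis; the triangle and the grey bar mark MIR29A and LINC-PINT as rounded by the rule. The lower 4 panels hold 11, 10, 25 and 25 peaks, most of them in 3 stretches, with single peaks apart in the WT panels, and the auxin panels hold none.

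Peaks were not spread evenly over the window. No peak lay within the first 42.75 kb or the last 148.9 kb of it in any list. Around the rounded position of MIR29A, the nearest peak before it ended 21.07 kb away in MED14-AID water + Nutlin-3a, 21.13 kb in MED14-AID water, 19.73 kb in WT Nutlin-3a and 6.727 kb in WT DMSO. The nearest peak after it began 11.11, 12.07, 10.6 and 10.64 kb away in these lists. Given a gene position known to 10 kb, these distances place the peaks on both sides of the microRNA and say no more. Within the LINC-PINT interval every peak lay toward the MIR29A end. The last peak ended 117.9 kb before the far end of the interval in MED14-AID water + Nutlin-3a, 115.6 kb in MED14-AID water, 98.88 kb in WT Nutlin-3a and 98.97 kb in WT DMSO. The end of the interval far from MIR29A thus held no listed peak. On GRCh38.p14, 3 of the 4 start windows of LINC-PINT lie at the end of the gene far from the microRNAs. The farthest of these overlap each other. The remaining start lies 35.77 kb from MIR29B1, nearer the end of the gene beside the microRNAs. The starts were not joined to the hg19 peaks, so whether a MED1 peak lies at any of them was not measured.

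No other peak lay close to the window. Its nearest neighbour toward lower coordinates was 695.1 kb away in MED14-AID water + Nutlin-3a, 14314.3 kb in MED14-AID water, 546.8 kb in WT Nutlin-3a and 546.9 kb in WT DMSO. These first peaks outside had folds of 3.67, 4.16, 2.90 and 3.27. Toward higher coordinates the next peak was 4005.1 kb away in WT Nutlin-3a and 4005.0 kb in WT DMSO, with folds of 4.21 and 3.21, and neither MED14-AID water list had one. The first peak inside, region 1, had folds of 2.88, 4.76, 6.02 and 5.21 in the 4 lists in the same order. The choice of the ends of the window therefore decided no member.

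Auxin was compared first. The MED14-AID auxin + Nutlin-3a list overlapped 0 of the 11 peaks of the MED14-AID water + Nutlin-3a list, so 11 of 11 (100%, Wilson 95% interval 74.12 to 100) were absent, against 91.0% of all peaks of that list. The MED14-AID auxin list overlapped 0 of the 10 peaks of the MED14-AID water list, so 10 of 10 (100%, 72.25 to 100) were absent, against 90.5% of the whole list. The loss at the locus was thus near that of the lists as a whole and is no result about these genes. All intervals given here cover the counting of peaks only. Each auxin list had 1 peak on the whole chromosome, at chr7:149045-149785 with a fold of 5.68 in auxin + Nutlin-3a and at chr7:149041-149816 with a fold of 8.08 in auxin. The lowest fold that was listed anywhere was 1.66 in auxin + Nutlin-3a and 1.72 in auxin, with a lowest −log10 q of 2.32 and 2.76. When the water lists were cut to their strongest peaks, as many as the auxin list held, 1 peak of the window was left among 66 in water + Nutlin-3a and 0 among 53 in water. Any MED1 left at the window under auxin was below what these lists hold.

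Nutlin-3a was compared within each line, against DMSO in WT cells and against water, with no DMSO named in the labels, in MED14-AID cells. In WT cells 3 of the 25 Nutlin-3a peaks (12%, 4.17 to 29.96) overlapped no DMSO peak, against 35.0% of all Nutlin-3a peaks. In the other direction 3 of the 25 DMSO peaks (12%, 4.17 to 29.96) were without a Nutlin-3a peak, against 26.5% of all DMSO peaks. The locus thus had 25 peaks with and without Nutlin-3a, and 20 of its 26 regions were in both WT lists. The share over all merged regions is not given here, so this count of regions is a description. In MED14-AID cells 2 of the 11 water + Nutlin-3a peaks (18.2%, 5.14 to 47.7) overlapped no water peak, against 31.2% of that list. Conversely 1 of the 10 water peaks (10%, 1.79 to 40.4) overlapped no water + Nutlin-3a peak, against 22.5% of that list. All 4 shares were below that of their list under this overlap rule. Broad peaks meet an overlap of 1 bp more readily, and most WT peaks of the window were wider than the median of their list. How far this, or the choice of the window by its peak calls, lowered the shares was not tested. With reciprocal overlap of at least 50% both WT shares were 28% (7 of 25), against 43.1% of all WT Nutlin-3a peaks and 35.4% of all WT DMSO peaks. In 2 settings a share was above that of its list: MED14-AID water against water + Nutlin-3a at equal list lengths (3 of 10, 30%, against 25.7%), and WT DMSO against WT Nutlin-3a with a −log10 q of at least 10 (1 of 12, 8.33%, against 5.99%). The 10 to 25 peaks behind each share sit in the same few clusters and are not independent of each other, so the difference was not tested.

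Peaks found with Nutlin-3a alone were weak. The 3 in WT cells were regions 7, 14 and 19, with folds of 2.54, 2.37 and 2.37, above only 11.1%, 6.14% and 6.06% of the peaks of their list. They lay 279, 48 and 696 bases from the nearest DMSO peak. Each was thus close to a DMSO peak. For region 14 that DMSO peak was region 13, itself listed with DMSO alone, so these neighbouring calls count once on each side. Those found with DMSO alone were regions 8, 13 and 21, with folds of 2.99, 3.60 and 2.79, above 40.9%, 64.8% and 30.9% of the peaks of their list. Region 13 lay 48 bases and region 21 lay 453 bases from a Nutlin-3a peak. Region 8, at chr7:130552651-130553273, was the exception: the nearest Nutlin-3a peak was 12377 bases away, and no MED14-AID list held a peak there. It was also the listed peak nearest to the rounded position of MIR29A before the gene.

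In MED14-AID cells the peaks that differed with Nutlin-3a were different ones. Region 12 (chr7:130586124-130586631, fold 3.29) was listed in water + Nutlin-3a and not in water, where the nearest peak was 6366 bases away. A piece of region 22 (chr7:130680121-130680912, fold 3.63) was also listed in water + Nutlin-3a alone, 217 bases from a water peak. In water alone, region 23 (chr7:130683734-130684423, fold 4.11) was listed, 1633 bases from the nearest water + Nutlin-3a peak. Regions 12 and 23 were in both WT lists. None of the regions that differed with Nutlin-3a in 1 line differed in the other. Those that differed in WT cells had no peak in any MED14-AID list and so could not differ there. Nothing about the lines is drawn from this.

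**Figure D2:**
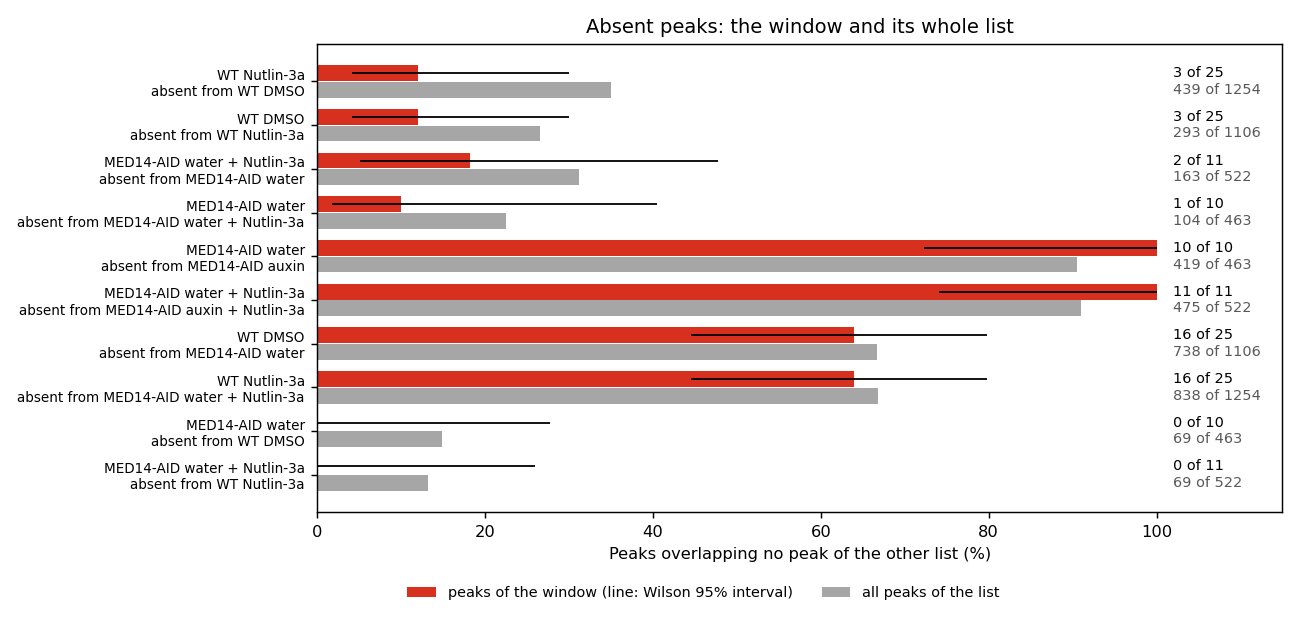
Share of peaks (x axis, percent) that overlap no peak of a second list, for the peaks of the window in red with Wilson 95% intervals as lines and for all peaks of the same list in grey, with counts at the right. The window's bars are at 100% against both auxin lists, where the grey bars are at 90.5% and 91.0%, and at 12% between the WT lists.

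MED14-AID cells without auxin held fewer peaks than WT cells, here as elsewhere. Each of the 10 MED14-AID water peaks overlapped a WT DMSO peak, so 0 of 10 (0%, 0 to 27.75) were absent, against 14.9% of that list. All 11 MED14-AID water + Nutlin-3a peaks overlapped a WT Nutlin-3a peak, so 0 of 11 (0%, 0 to 25.88) were absent, against 13.2% of that list. Set the other way round, 16 of the 25 WT DMSO peaks (64%, 44.5 to 79.8) overlapped no MED14-AID water peak, against 66.7% of the WT DMSO list. Likewise 16 of the 25 WT Nutlin-3a peaks (64%, 44.5 to 79.8) overlapped no MED14-AID water + Nutlin-3a peak, against 66.8% of that list. These shares were close to the background and say nothing particular about the locus. The lists differ in the number of libraries behind them, 1 for MED14-AID and 2 for WT. The mock treatment also differed, being water in MED14-AID cells and DMSO in WT cells. Genotype, mock treatment and number of libraries cannot be told apart.

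The same 8 regions held a listed MED1 peak in all 4 lists without auxin. No share over all merged regions of the lists is given beside these counts, so they describe the locus and are no result about it. They were regions 1, 4, 6, 9, 11 and 16 on the MIR29A side and regions 20 and 22 in the LINC-PINT interval. A further 2 regions were in 3 lists, region 12 without MED14-AID water and region 23 without MED14-AID water + Nutlin-3a. The remaining regions were in WT lists only: 10 in both, 3 in Nutlin-3a alone and 3 in DMSO alone. No region was in a MED14-AID list and in no WT list. In WT Nutlin-3a the 8 regions in all 4 lists had folds of 4.16 to 10.4 with a median of 6.48, and the 13 regions in no MED14-AID list had folds of 2.37 to 4.47 with a median of 2.99. In WT DMSO the same classes had folds of 5.21 to 6.94 with a median of 6.14, and of 2.29 to 4.04 with a median of 2.88, also from 13 regions. The split by strength is a description of lists that hold only peaks above a threshold, and its cause was not tested. Over the whole list, 66.7% of WT DMSO peaks overlapped no MED14-AID water peak. Among those with a −log10 q of at least 10 it was 44.6%. For WT Nutlin-3a against MED14-AID water + Nutlin-3a these shares were 66.8% and 49.1%. A lower absence among stronger peaks was thus not particular to the locus. Region 23, with a fold of 6.84 in WT Nutlin-3a and no MED14-AID water + Nutlin-3a peak, is in neither class.

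**Figure D3:**
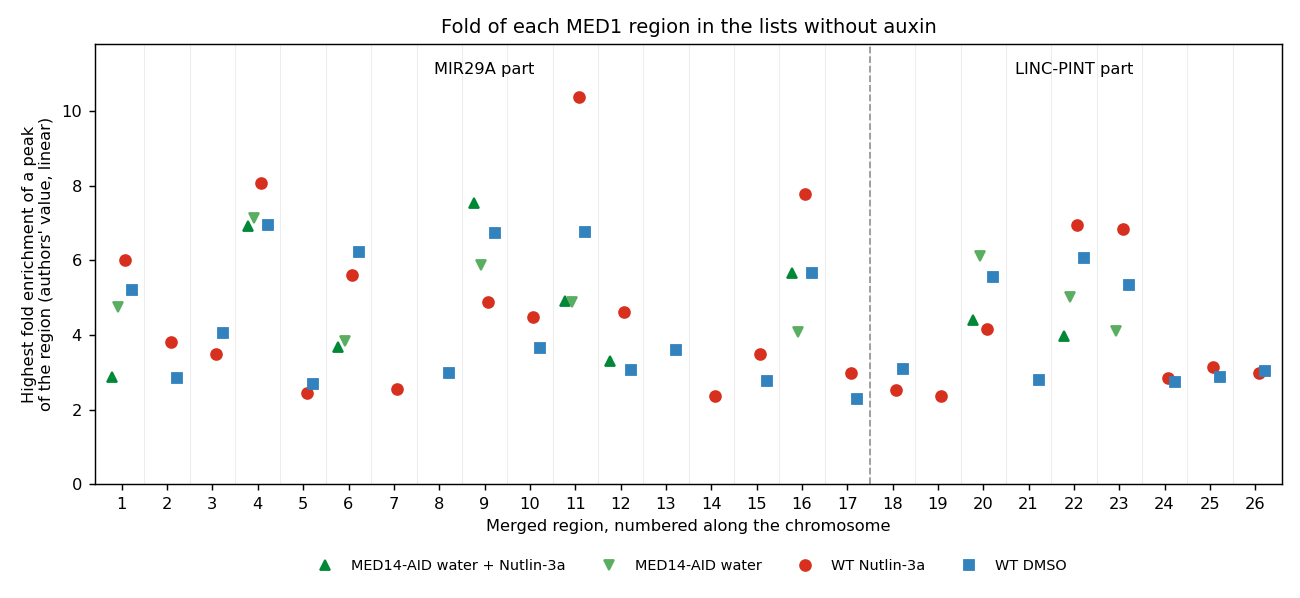
Highest fold enrichment of a peak (y axis, the authors' value, linear) in each of the 26 merged regions (x axis, numbered along the chromosome) in the 4 lists without auxin, with the dashed line between the MIR29A side and the LINC-PINT interval. MED14-AID symbols appear in 10 regions, and the highest value of the plot is 10.4 in WT Nutlin-3a at region 11.

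On the MIR29A side the highest fold of the locus was at region 11. In WT Nutlin-3a its main peak, chr7:130577910-130580533, had a fold of 10.4 and a −log10 q of 107.2, and ranked 19 by fold among 1254 peaks. The fold was 4.91 in MED14-AID water + Nutlin-3a, 4.88 in MED14-AID water and 6.75 in WT DMSO. In WT DMSO the region was a single peak of 5614 bp, chr7:130578625-130584238, which ranked 4 by width among 1106 peaks, while WT Nutlin-3a had a second peak of 3284 bp beside the first. Folds come from separately called lists, so values of different lists are set side by side and no change is drawn from them.

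Region 9 was the highest in a MED14-AID list. Its folds were 7.53 in MED14-AID water + Nutlin-3a, 5.88 in MED14-AID water, 4.87 in WT Nutlin-3a and 6.74 in WT DMSO. Region 4, at chr7:130528318-130531008 in WT Nutlin-3a, had 6.91, 7.14, 8.08 and 6.94 in the same lists and was the highest peak of the window in MED14-AID water. It was the only region with a fold above 6 in all 4 lists without auxin. Region 16, a peak of 3552 bp in WT Nutlin-3a at chr7:130596011-130599562, had folds of 5.67, 4.08, 7.77 and 5.66. Regions 1 and 6, the other regions of the MIR29A side in all 4 lists, had 2.88, 4.76, 6.02 and 5.21 at region 1 and 3.68, 3.83, 5.61 and 6.23 at region 6. The 6 regions of this side in both WT lists and no MED14-AID list, 2, 3, 5, 10, 15 and 17, had folds of 2.45 to 4.47 in WT Nutlin-3a and 2.29 to 4.04 in WT DMSO.

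In the LINC-PINT interval the broadest site was region 22. It was 1 peak in each WT list, of 4011 bp in WT Nutlin-3a (chr7:130678490-130682500) and 3970 bp in WT DMSO, with folds of 6.94 and 6.06. The MED14-AID lists split the same stretch into 3 peaks in water + Nutlin-3a, with folds of 2.27, 3.63 and 3.96, and 2 peaks in water, with folds of 4.22 and 5.01. Next to it, region 23 had a fold of 4.11 in MED14-AID water, 6.84 in WT Nutlin-3a and 5.33 in WT DMSO. The WT Nutlin-3a peak of region 23 was above 93.1% of its list by fold, yet it had no counterpart in MED14-AID water + Nutlin-3a. Region 20 was the strongest site of the interval in the MED14-AID lists, with folds of 4.39 in water + Nutlin-3a and 6.12 in water, against 4.16 in WT Nutlin-3a and 5.55 in WT DMSO. The 4 regions of the interval in both WT lists and no MED14-AID list, 18, 24, 25 and 26, had folds of 2.53 to 3.15 in WT Nutlin-3a and 2.74 to 3.08 in WT DMSO.

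Compared with the other peaks of the same list, those of the locus had a median fold on either side of the list median. In WT cells they were broader than most. Their median fold was 3.96 in MED14-AID water + Nutlin-3a, 4.82 in MED14-AID water, 3.81 in WT Nutlin-3a and 3.08 in WT DMSO, against list medians of 4.25, 4.38, 3.41 and 3.19. This put the median of the locus above 42.2%, 59.2%, 63.2% and 45.1% of the peaks of its list. The median width was 914, 905, 1187 and 1211 bp, against list medians of 830.5, 833, 818 and 760.5 bp. By width the median lay above 58.8% and 58.8% of peaks in the MED14-AID water lists, and above 74.2% and 77.1% in WT Nutlin-3a and WT DMSO. In WT Nutlin-3a 19 of 25 peaks were wider than the median of the list, and in WT DMSO 17 of 25. Among the widest 10% of a list were 8 of the 25 peaks in each WT list and none in either MED14-AID water list. Among the highest 10% by fold were 1 of 11, 0 of 10, 5 of 25 and 7 of 25 peaks in the 4 lists. In both WT lists this was more than 10% of the window's peaks, so strong and weak peaks lay side by side.

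By fold, the counts on the MIR29A side and in the LINC-PINT interval were as follows. On the MIR29A side 12 of 16 WT Nutlin-3a peaks and 9 of 17 WT DMSO peaks had a fold above the median of their list. In the LINC-PINT interval 3 of 9 WT Nutlin-3a peaks and 3 of 8 WT DMSO peaks did. The MED14-AID lists had 4 of 7 on the MIR29A side and 1 of 4 in the LINC-PINT interval in water + Nutlin-3a, and 4 of 6 and 2 of 4 in water. Above the median width of the list were 5 of 7, 4 of 6, 13 of 16 and 12 of 17 peaks on the MIR29A side in MED14-AID water + Nutlin-3a, MED14-AID water, WT Nutlin-3a and WT DMSO. In the LINC-PINT interval 2 of 4, 3 of 4, 6 of 9 and 5 of 8 were. By width the higher share was thus on the MIR29A side in 3 lists and in the LINC-PINT interval in MED14-AID water. The difference between the sides was not tested, because neighbouring peaks share their cluster and library, and peaks on the MIR29A side may themselves lie within LINC-PINT.

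**Figure D4:**
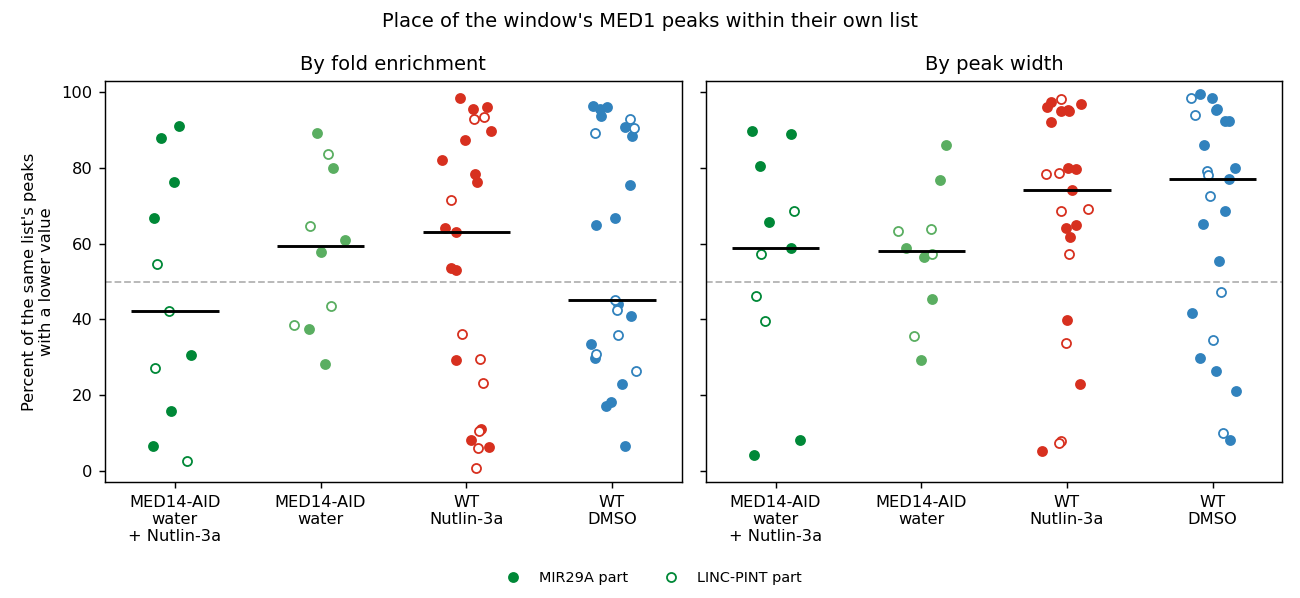
Place of each peak of the window within its own list, as the percent of that list's peaks with a lower fold (left) or a smaller width (right), with filled symbols for the MIR29A side, open symbols for the LINC-PINT interval, black bars for medians and a dashed line at 50%. By width the WT medians stand near 74% and 77%, while by fold the 4 medians lie on either side of 50%.

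The peaks of the locus came in clusters. Peaks were called neighbours up to the stitching distance customary in the super-enhancer literature, which lies between the 5 kb and 25 kb tried as alternatives. By this distance 11 of 11 peaks in MED14-AID water + Nutlin-3a, 9 of 10 in MED14-AID water, 24 of 25 in WT Nutlin-3a and 23 of 25 in WT DMSO had another peak of the list nearby, against 57.3%, 55.9%, 52.0% and 46.2% of all peaks. Joining such peaks gave 3 clusters in MED14-AID water + Nutlin-3a, 4 in MED14-AID water, 4 in WT Nutlin-3a and 5 in WT DMSO, single peaks included. These high shares follow in part from a window chosen for its many peaks.

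In WT Nutlin-3a the middle cluster, chr7:130570599-130601486 after the MIR29A position, held 9 peaks that covered 18.5 of its 30.9 kb, and ranked 3 of 806 in that list by number of peaks, 3 by bases covered and 8 by span. In WT DMSO the same stretch, chr7:130570644-130601525, held 8 peaks that covered 18.8 of 30.9 kb, and ranked 5 of 756 by number, 4 by bases covered and 8 by span. It held 4 peaks over 27.7 kb in MED14-AID water + Nutlin-3a, where it ranked 9 of 329 by number, 13 by bases covered and 3 by span. These ranks follow in part from a window chosen by its peak calls, and they depend on the joining gap. With 5 kb these 4 peaks did not join, and with 25 kb the cluster ranked 19 of 292 by span. In WT Nutlin-3a the rank by span was 2 of 913 with 5 kb and 32 of 736 with 25 kb. In WT DMSO the stretch was split with 5 kb and joined to the peaks before MIR29A with 25 kb. In MED14-AID water regions 11 and 16 were too far apart to join, and the stretch was a cluster of 2 peaks and a single peak.

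The cluster before MIR29A held 3 peaks in MED14-AID water + Nutlin-3a, 3 in MED14-AID water, 7 in WT Nutlin-3a and 8 in WT DMSO, over 15.7, 15.7, 17.3 and 16.5 kb. The LINC-PINT cluster held 4, 4, 8 and 7 peaks over 10.5, 12.9, 31.1 and 29.7 kb. It was the longest of the 3 in WT Nutlin-3a but covered only 10.4 kb, and in the MED14-AID lists it lacked the stretch with regions 24 to 26. Between the last peak of the MIR29A side and the first of the LINC-PINT interval lay 72.7 kb in MED14-AID water + Nutlin-3a, 72.9 kb in MED14-AID water, 43.5 kb in WT Nutlin-3a and 42.9 kb in WT DMSO. The shorter gap in WT came from region 18, a single peak at chr7:130644984-130646040 in WT Nutlin-3a.

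All 11 peaks of MED14-AID water + Nutlin-3a covered 10.8 kb, the 10 of MED14-AID water 9.51 kb, the 25 of WT Nutlin-3a 40.0 kb and the 25 of WT DMSO 40.6 kb. As shares of the bases that each list covered genome-wide these were 2.07%, 2.04%, 2.93% and 3.55%. As shares of the number of peaks they were 2.11%, 2.16%, 1.99% and 2.26%. The locus thus took a like share of peaks in the 4 lists, and a larger share of covered bases in the WT lists, where its peaks were broad.

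Summits, the points of highest signal that the caller gave, lay close together in the lists with and without Nutlin-3a. Between WT Nutlin-3a and WT DMSO the median distance was 89.5 bp over 22 overlapping pairs, and 17 pairs were within 200 bp, against a median of 79 bp and 79.5% within 200 bp over all pairs of the lists. The longest distance, 3071 bp, was that of the second WT Nutlin-3a peak of region 11 from the single broad WT DMSO peak. Between MED14-AID water + Nutlin-3a and MED14-AID water it was 118 bp over 9 pairs, from 47 to 453 bp, against 109 bp over the lists. The lines were compared in the same way. From MED14-AID water to WT DMSO the median was 110.5 bp over 10 pairs, against 107.5 bp over the lists, and from MED14-AID water + Nutlin-3a to WT Nutlin-3a it was 197 bp over 11 pairs, against 99 bp. The longest of these 11 distances, 1940 and 1192 bp, were those of pieces of region 22 that WT Nutlin-3a held as 1 peak. With reciprocal overlap of at least 50% the median was 96 bp over 3 pairs, against 85 bp over the lists. Over the 4 lists the summits of the strongest peaks lay within 55 bp at region 1, 111 bp at region 22 and 160 bp at region 20. They lay within 273 to 553 bp at regions 4, 6, 9, 11 and 16.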

How the data were processed

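Peak lists of MED1 ChIP-seq in HCT116 cells were used as deposited. The submitters' processing notes name Bowtie 0.12.9, MACS2 2.1.2 and the build hg19. The settings, the duplicate filter and the use of the inputs are not given in the sources used here. Per the labels, both replicates of a WT condition share 1 list, and each MED14-AID list is from 1 library. Column 7, the fold enrichment, is a linear ratio to the local background as deposited by the authors. The deposited −log10 q of each peak was used for filtering and as an alternative measure of strength. The deposited lists give no depth, and a library sequenced more deeply can give more and broader peaks.

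Peaks were matched by overlap of at least 1 bp, merged over the 6 lists and joined at the stitching distance customary for super-enhancers (5 kb and 25 kb as alternatives), with Python 3.11.15, numpy 2.4.6, pandas 2.3.3 and matplotlib 3.10.9. Overlap counts were checked against bedtools 2.31.1 (0 of 60 differed) and the steps were tested on simulated data. Wilson 95% intervals came from scipy 1.17.1. No test was made, since each condition has 1 list. The window, its members and the features compared were chosen with earlier results of these data known. All members of the window are accounted for, and the regions described singly are those in all lists without auxin, those that differed between lists and the strongest and broadest. Alternatives were another overlap rule, q minimum, list length, window and joining gap. Sequences and gene order are from RefSeq on GRCh38.p14 and were not joined to hg19 positions. The genome sequence of the peaks was not used here.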

Additional observations from a re-analysis of the deposited data

How the results depend on the processing

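Of the recomputed values, 78 stayed within their interval or within 1.5 times the reported value, and 27 moved. Some of those that stayed could not move. The auxin lists held no peak of the window, which fixed their counts and the shares set against them. No peak lay close enough for a longer window to add it. The number that stayed is therefore no measure of how firm the results are. Each share below is set against that of the whole list under the same setting. The share of WT Nutlin-3a peaks absent from WT DMSO was 0% with a gap of up to 1 kb counted as shared (31.2% of the list), with a −log10 q of at least 5 (0 of 20, 30.7%) or 10 (0 of 15, 15.9%), and with lists of equal length (0 of 20, 30.7%). The reverse share was 4% with the 1 kb gap (24.0%). With a −log10 q of at least 10 it was 0% for MED14-AID water + Nutlin-3a against water (0 of 5, 12.0%) and for water against water + Nutlin-3a (0 of 6, 5.99%). The share of WT DMSO peaks absent from MED14-AID water was 88% with reciprocal overlap of at least 50% (75.2%), 25% with a −log10 q of at least 10 (44.6%) and 25% with lists of equal length (41.7%). That of WT Nutlin-3a peaks absent from MED14-AID water + Nutlin-3a was 88% with reciprocal overlap (76.0%), 44% with the 1 kb gap (63.0%), 40% with a −log10 q of at least 10 (49.1%) and 30.8% with lists of equal length (38.9%). The other shares that rose by over 1.5 times within their interval were both WT shares at 28% with reciprocal overlap (43.1% and 35.4%), and water against water + Nutlin-3a at 20% with reciprocal overlap (36.1%) and 30% with lists of equal length (25.7%). At equal length no peak of the window was left in water to set against auxin. A −log10 q of at least 10 left 5 peaks in MED14-AID water + Nutlin-3a, 6 in MED14-AID water, 15 in WT Nutlin-3a and 12 in WT DMSO. Joining peaks up to 1 kb apart gave 16 in WT Nutlin-3a and 14 in WT DMSO. Ranked by −log10 q, the median peak lay above 70.1% of the list in WT Nutlin-3a and 51.7% in WT DMSO. A joining gap of 5 kb gave 9 clusters in MED14-AID water + Nutlin-3a, 8 in MED14-AID water and 7 in WT Nutlin-3a; one of 25 kb gave 2 over all lists and 3 in WT DMSO. The cause of these shifts was not tested beyond what each setting does by construction. A window 50 kb longer on each side changed no count. Merged regions in place of peaks, an alternative chosen after seeing the data, moved none of the 8 shares it was applied to.

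The absence of a peak under auxin is the absence of a listed peak, since depth is unknown and no signal below the threshold was used. No paired analysis was possible because the WT replicates share joint lists and the MED14-AID groups have 1 library each.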
